A study of Mus musculus with 20 samples.

Results

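A set of 10 genes of the liver endothelium was followed through the livers of 20 mouse fetuses: Pecam1, Kdr, Flt1, Tek, Cdh5, Stab1, Stab2, Lyve1, Clec4g and Oit3. They were chosen by name, as general endothelial genes (the first 5) and genes typical of the liver sinusoid (the last 5), and they are 10 of the 45802 gene entries of the expression table. All 10 had a value in every library and were among the 11807 genes kept by the filter on low values, which asked for a linear value of 1 or more in 4 libraries or more. Flt1 passed with the fewest libraries, 13 of 20, and the other members passed in all 20.

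Endothelial cells line every blood vessel. In the liver most of them form the sinusoids, wide capillaries whose walls are perforated and lack a complete basement membrane, and these cells clear macromolecules from the blood through scavenger receptors such as the stabilins. VEGF ligands, largely from neighbouring hepatocytes, act on the receptors encoded by Kdr and Flt1, and angiopoietins act on the receptor encoded by Tek. In the fetus the sinusoids also surround the blood-forming cells that fill the organ.

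The libraries were bulk messenger RNA of whole liver at stage E17.5, from dams of the C57BL/6 strain fasted for 24 h, in 5 groups of 4 fetuses with 2 females and 2 males each. Groups are written as dam/fetus. In the Ppar-alpha arm, the control was heterozygous fetuses of heterozygous dams (Het/Het), set beside heterozygous fetuses of knockout dams (KO/Het) and knockout fetuses of knockout dams (KO/KO), so every fetus of this arm carried at least 1 knockout allele. In the Cpt2 arm, fetuses and dams of the second control were both Cpt2f/f (Flox/Flox, called wild type in the titles). The fetuses of the other group of this arm were also Cpt2f/f, and their dams carried Albumin-Cre in addition (Cpt2LKO/Flox). Albumin-Cre acts in hepatocytes, so it removes Cpt2 from the liver cells of the dam, while the fetuses are labelled without Cre. PPAR-alpha is the nuclear receptor that drives fatty acid oxidation in fasting, and CPT2 is a mitochondrial enzyme that long-chain fatty acids need for oxidation. The design text asks how the metabolism of the dam acts on the fetal liver.

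Values are log2 expression as deposited, already quantile normalized, in a unit that is not named. Levels of different genes are therefore not compared, read depth is unknown, and in bulk tissue fewer endothelial cells cannot be told apart from less RNA per cell. Each library had a value for 23334 (Het/Het replicate 2) to 26255 (KO/Het replicate 4) genes. Ppara itself ranged from 2.86 to 3.47 in Het/Het, from 1.81 to 3.22 in KO/Het and from 1.87 to 2.48 in KO/KO, so transcript remained in knockout fetuses; whether its reads lie in the deleted part is not known. The hepatocyte and erythroid marker lists, 10 genes each, passed the filter in full. Het/Het replicate 4 and KO/KO replicate 2 held 13.0 and 18.1 times the median summed level of 10 skeletal muscle genes, and Cpt2LKO/Flox replicate 2 held 13.0 times that of 10 pancreas genes. KO/Het replicates 1 and 2, KO/KO replicates 1 and 2 and Flox/Flox replicates 3 and 4 share a number in their descriptions and are presumed littermates.

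Sequences before the start site are shown for the 2 sinusoidal and the 2 general endothelial members with the smallest p-values among the 6 members that the RefSeq promoter table of GRCm38.p6 holds (Kdr, Flt1, Tek, Stab1, Stab2 and Clec4g). ETS factors, which recognise a GGAA core, are central to endothelial gene expression, and GATA factors share this role. Each sequence holds the 250 bases before the start site of the promoter table on the gene's own strand. Capitals mark GGAAG (or CTTCC, its reverse complement), AGATAA and TATAAA (or its reverse complement). That start site is not the outer end of the gene spans given below. The printed sequences of Kdr and Flt1 lie wholly inside those spans, whose outer ends are at 75979072 and 147726438.
Clec4g, chr8:3720652-3720901, minus strand: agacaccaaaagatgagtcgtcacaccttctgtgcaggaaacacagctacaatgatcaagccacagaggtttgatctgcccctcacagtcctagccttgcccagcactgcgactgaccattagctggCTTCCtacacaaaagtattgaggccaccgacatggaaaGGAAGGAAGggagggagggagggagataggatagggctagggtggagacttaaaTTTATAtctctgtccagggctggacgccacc
Stab1, chr14:31168642-31168891, minus strand: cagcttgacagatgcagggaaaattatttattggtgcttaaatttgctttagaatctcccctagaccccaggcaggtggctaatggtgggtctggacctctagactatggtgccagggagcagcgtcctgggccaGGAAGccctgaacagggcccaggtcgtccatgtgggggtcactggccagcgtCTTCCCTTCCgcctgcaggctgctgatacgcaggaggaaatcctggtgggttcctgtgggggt
Flt1, chr5:147726012-147726261, minus strand: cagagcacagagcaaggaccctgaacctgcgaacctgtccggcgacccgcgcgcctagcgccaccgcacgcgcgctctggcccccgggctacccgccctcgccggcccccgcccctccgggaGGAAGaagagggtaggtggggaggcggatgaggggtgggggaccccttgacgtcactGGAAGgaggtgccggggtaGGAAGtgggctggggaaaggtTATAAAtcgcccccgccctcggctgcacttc
Kdr, chr5:75978456-75978705, minus strand: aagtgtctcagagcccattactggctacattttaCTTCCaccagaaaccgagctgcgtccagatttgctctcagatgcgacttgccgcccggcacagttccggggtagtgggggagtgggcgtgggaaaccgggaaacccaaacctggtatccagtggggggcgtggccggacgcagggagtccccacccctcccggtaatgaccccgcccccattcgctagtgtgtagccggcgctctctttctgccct

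In the full windows of 300 bases (250 before and 50 after the start site), read on both strands, GGAAG was present in 5 of the 6 members and absent from Tek, against 71.4% of all 32851 promoters in the table. Clec4g, Stab1 and Flt1 held 3 matches each, of which the adjacent ones in Clec4g share a base. TATAAA lay 31 bases before the start site in Flt1 and, on the other strand, in Clec4g, against 13.6% of all promoters with a match anywhere in the window. AGATAA was found in Tek, against 11.2% of all promoters, and CAGGAAG, which contains GGAAG, in Stab1, against 13.3%. Of the other letters searched, ACAAAG was found in Tek (18.7% of all promoters), TGCTGA in Tek and Stab1 (19.5%) and GTAAACA in no member (3.65%). The window of Flt1 was 70.7% G and C, that of Kdr 60.7% and that of Clec4g 51.0%, against a median of 52.7% over all promoters. These matches are a description of the letters, and the data hold no measurement of binding.

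Loss of Ppar-alpha in the dam was examined in heterozygous fetuses, KO/Het against Het/Het. Clec4g was the member that differed most, at a level 4.96-fold lower in fetuses of knockout dams. Kdr, Flt1 and Oit3 were higher, and the other 6 members did not pass the test. With limma and Benjamini-Hochberg adjustment over all genes tested, 3 members were called higher and 1 lower at an adjusted p under 0.05. Over all 11800 genes tested in this comparison 26.4% were called higher and 12.6% lower, 39.0% together, so 4 members of 10 is a share near the background. The median log2 fold change was 0.11 over the members and 0.14 over all genes tested. The values depend on the scaling: a trimmed-mean scaling moved the median of all genes from 0.144 to 0.0168 and the calls to 18.7% higher and 18.9% lower. Under it no member was called higher and 2, Clec4g and Stab1, were called lower.

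Clec4g (chromosome 8, 3707066 to 3720695, GRCm38.p6, minus strand, protein-coding) encodes LSECtin, a C-type lectin of the sinusoidal endothelial surface. It stood at log2 3.63, 3.41, 3.10 and 3.29 in the 4 Het/Het fetuses and at 0.93, 0.68, 1.24 and 1.35 in the 4 KO/Het fetuses. Every fetus of a knockout dam lay below every control, with a gap wider than the spread within either group. The difference was -2.31 ± 0.368 (SE, n = 4 and 4, limma adjusted p = 2.72e-04, 95% interval -3.08 to -1.54), and by fold change Clec4g ranked 65th from the bottom of 11800 genes. The call held in all 21 alternatives, between -2.44 and -1.23, with the smallest difference when 4 was added to the linear values. A long non-coding RNA, Gm16553, overlaps 11214 bases of the gene on the other strand, and its highest log2 value in any library was -3.61. Whether the counting used strand is not given in the sources used here.

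**Figure D1:**
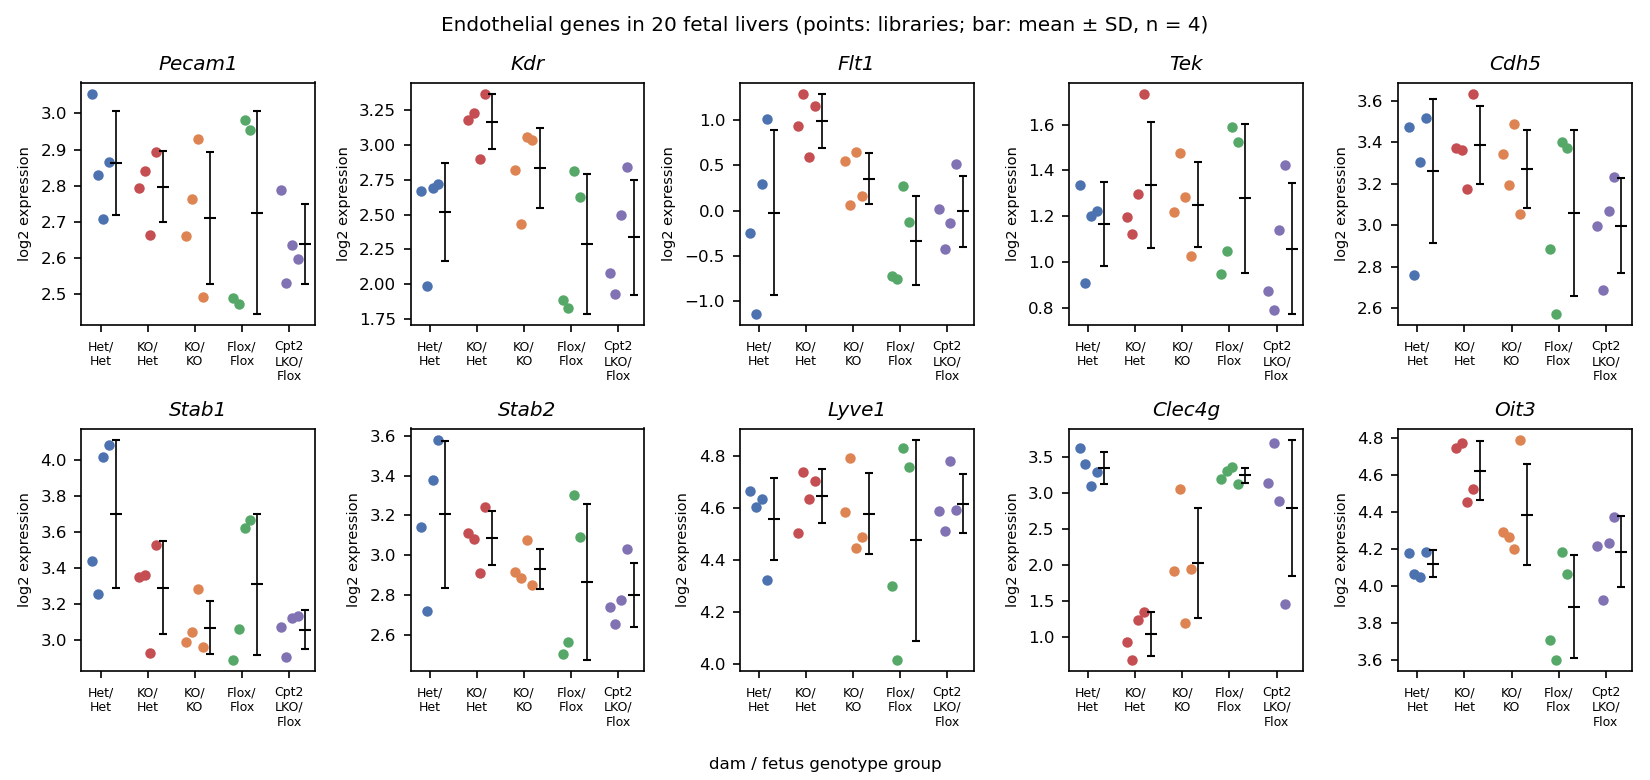
Each panel shows 1 gene, with log2 expression on the vertical axis and the 5 dam/fetus groups on the horizontal axis; points are single fetuses in replicate order and the bar is the mean ± SD (n = 4). In the Clec4g panel the KO/Het points (0.68 to 1.35) lie below all Het/Het points (3.10 to 3.63), in the Kdr and Oit3 panels they lie above them, and for Clec4g the lowest Cpt2LKO/Flox point, at 1.46, lies below the others of its group.

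Oit3 (chromosome 10, 59422960 to 59441779, minus strand) encodes a secreted protein with a zona pellucida domain and is used as a sinusoidal marker. Its log2 values were 4.18, 4.07, 4.05 and 4.18 in Het/Het and 4.75, 4.77, 4.45 and 4.52 in KO/Het. The groups did not overlap, and the KO/Het fetuses were all higher. The difference was 0.50 ± 0.148 (SE, limma adjusted p = 0.0123), a fold of 1.42. It was called in 19 of 21 alternatives and lost with a trimmed-mean scaling (0.38, adjusted p = 0.0612) and without both presumed littermates of KO/Het (0.37, adjusted p = 0.147).

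The stabilins and Lyve1 did not pass the test in this comparison. Stab1 (chromosome 14, 31139017 to 31168651, minus strand), a scavenger receptor for modified lipoproteins and matrix fragments, stood at 3.44, 3.26, 4.02 and 4.08 in Het/Het and at 3.35, 3.36, 2.93 and 3.53 in KO/Het, which overlap. Its difference was -0.41 ± 0.196 (adjusted p = 0.105, 95% interval -0.82 to 0.0014). It was called under the trimmed-mean scaling (-0.54, adjusted p = 0.0332) and without Het/Het replicate 2 (-0.56, adjusted p = 0.0378). Stab2 (chromosome 10, 86841194 to 87008038, minus strand), the hyaluronan scavenger receptor, differed by -0.12 (interval -0.49 to 0.26). Lyve1 (chromosome 7, 110850607 to 110862953, minus strand), a hyaluronan receptor shared with lymphatic vessels, differed by 0.09 (interval -0.22 to 0.40). The trimmed-mean scaling turned the sign of Lyve1 to -0.04, and Stab2 turned to 0.0067 without Het/Het replicate 4. Stab1 shares 108 bases with Nt5dc2 on the other strand, whose median log2 value was 5.62.

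Among the receptors, Kdr (chromosome 5, 75932827 to 75979072, minus strand) encodes VEGFR2, the main signalling receptor for VEGF-A. It read 2.67, 1.99, 2.69 and 2.72 in Het/Het and 3.18, 3.23, 2.90 and 3.37 in KO/Het. The KO/Het values were all higher, and Het/Het replicate 2 stood below its group. That library had the fewest genes with a value, and KO/Het replicate 4, the highest for Kdr, had the most. Het/Het replicate 2 was also the lowest control for Flt1, Tek, Cdh5, Stab1 and Stab2, but not for the remaining members. Whether the number of genes with a value bears on these levels was not tested. The difference was 0.65 ± 0.242 (SE, limma adjusted p = 0.0393), a fold of 1.57. The call was lost in 9 of 21 alternatives, among them those without Het/Het replicate 2 (0.48, adjusted p = 0.139), KO/Het replicate 1 (0.65, adjusted p = 0.0737), replicate 2 (0.63, adjusted p = 0.0742) or replicate 4 (0.59, adjusted p = 0.0935). It was also lost with presumed litter as a block (0.65, adjusted p = 0.0564) and without the presumed littermates of KO/Het (0.62, adjusted p = 0.153). A trimmed-mean scaling (0.53, adjusted p = 0.0763) and quantile normalization of the tested genes (0.58, adjusted p = 0.056) ended the call too. So did dropping the filter on low values (0.65, adjusted p = 0.0534).

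Flt1 (chromosome 5, 147561604 to 147726438, minus strand) encodes VEGFR1, which binds VEGF-A tightly and, in its soluble form, holds it back. Its values of -0.25, -1.14, 0.30 and 1.01 in Het/Het overlapped those in KO/Het, 0.94, 1.28, 0.59 and 1.15. Het/Het replicate 4 alone reached into the KO/Het range. The difference of 1.01 ± 0.357 (SE, limma adjusted p = 0.0313) was lost in 10 of 20 alternatives. Among them it was lost without Het/Het replicate 1 (0.94, adjusted p = 0.0716), Het/Het replicate 2 (0.64, adjusted p = 0.127), KO/Het replicate 1 (1.03, adjusted p = 0.0571), replicate 2 (0.91, adjusted p = 0.0778) or replicate 4 (0.96, adjusted p = 0.0669). Presumed litter as a block (0.98, adjusted p = 0.0571) and leaving out the presumed littermates of KO/Het (0.89, adjusted p = 0.161) ended it too. The call was also lost with a trimmed-mean scaling (0.88, adjusted p = 0.0526) and quantile normalization of the tested genes (0.81, adjusted p = 0.0732). Fitting only the groups compared lost it as well (1.01, adjusted p = 0.0783).

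Tek (chromosome 4, 94739086 to 94874976, plus strand), the angiopoietin receptor TIE2, differed by 0.17 (interval -0.22 to 0.56). Its libraries ran from 0.91 to 1.34 in Het/Het and from 1.12 to 1.74 in KO/Het. The junction genes were closer still. Cdh5 (chromosome 8, 104101613 to 104144504, plus strand), the cadherin of endothelial junctions, differed by 0.12 (interval -0.28 to 0.53) and turned to -0.0031 under the trimmed-mean scaling and to -0.04 without Het/Het replicate 2. Pecam1 (chromosome 11, 106654213 to 106715281, minus strand), the adhesion molecule CD31, differed by -0.07 (interval -0.34 to 0.21). None of the 3 passed the test, and the intervals leave room for changes of up to about the size seen in Oit3 for Cdh5 and Tek.

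**Figure D2:**
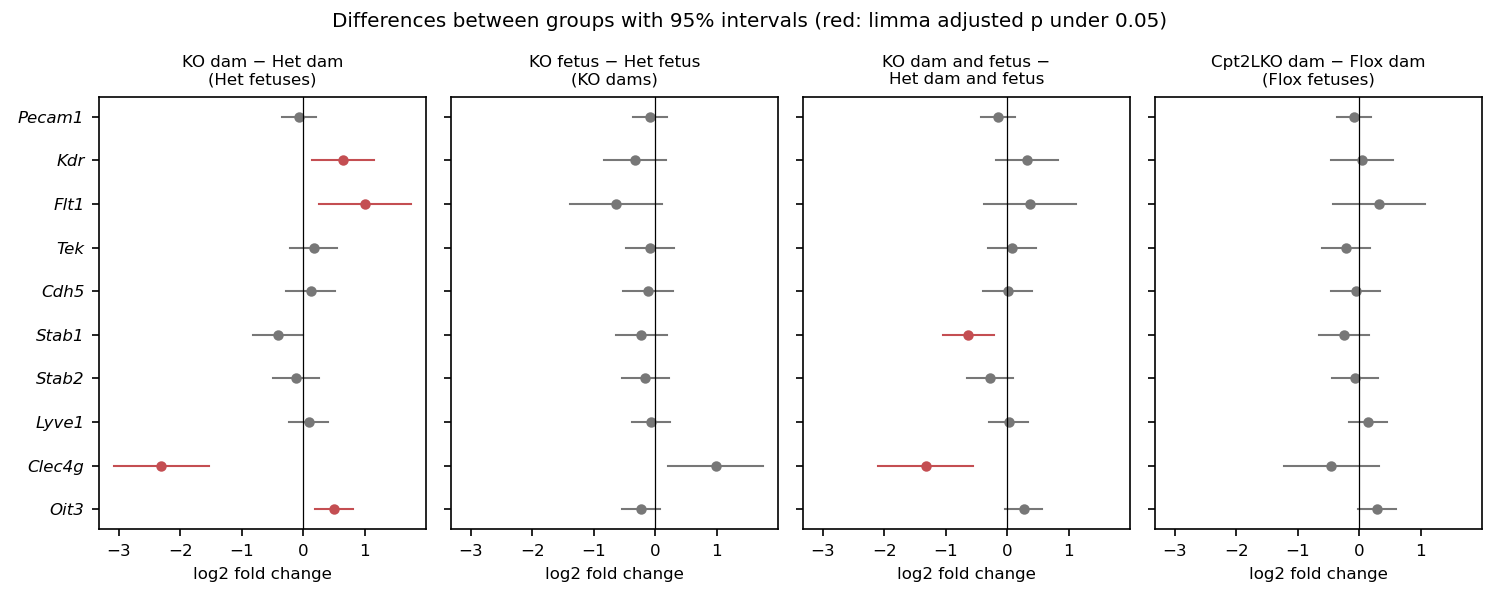
Points are log2 fold changes of the 10 genes (horizontal axis) in 4 comparisons, with 95% intervals from limma; red marks an adjusted p under 0.05. Clec4g lies at -2.31 for the knockout dam with heterozygous fetuses, and no gene is red in the fetal knockout or the maternal Cpt2 comparison.

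Since the members share their libraries, the level of Clec4g was also set against another sinusoidal gene within each library. The difference of log2 values between Clec4g and Stab2 averaged 0.15 ± 0.51 (SD, n = 4) in Het/Het and -2.04 ± 0.323 in KO/Het. It lay between -0.29 and 0.69 in the controls and between -2.41 and -1.67 in KO/Het, with no overlap. Against Cdh5 it averaged 0.09 ± 0.411 and -2.34 ± 0.316. The same difference between Stab1 and Stab2 averaged 0.49 ± 0.145 and 0.20 ± 0.129, from 0.30 to 0.64 in Het/Het and from 0.01 to 0.29 in KO/Het. Relative to Stab2 and to Cdh5 of the same library, Clec4g was thus lower in KO/Het than in Het/Het. This follows from the group differences given above and adds no separate test.

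Loss of Ppar-alpha in the fetus was examined among fetuses of knockout dams, KO/KO against KO/Het, which shares the KO/Het group with the comparison above. KO/KO and KO/Het have no presumed litter in common, so fetal genotype cannot be told apart from litter here. None of the 10 members was called by limma, and 1 had an unadjusted p under 0.05, against 0.822% of all 11805 genes called (0.0254% higher and 0.796% lower) and 10.9% with an unadjusted p under 0.05. That member was Clec4g, at 1.92, 3.06, 1.20 and 1.95 in KO/KO. Replicate 2, the library with the muscle genes, was the highest, and KO/KO replicate 3 lay within the range of KO/Het, 0.68 to 1.35. The difference was 0.98 ± 0.368 (SE, limma adjusted p = 0.364), with an interval of 0.21 to 1.75. The SD of Clec4g was 0.77 in KO/KO against 0.306 in KO/Het. The other differences ran from -0.64 for Flt1 to -0.07 for Lyve1, all below 0, and none passed the test. Without KO/Het replicate 4 that of Tek turned to 0.05.

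With both genotypes changed, KO/KO against Het/Het, 2 sinusoidal members were called lower and none higher, against 7.31% of 11801 genes called lower and 17.4% higher, 24.7% together. Under the trimmed-mean scaling these became 11.7% lower and 9.76% higher, and the members called stayed at 2 lower and 0 higher. This comparison shares its groups with both of the preceding ones. Clec4g was lower by -1.33 ± 0.368 (SE, limma adjusted p = 0.0148), with every KO/KO fetus below every Het/Het fetus, though KO/KO replicate 2 at 3.06 lay just under the lowest control at 3.10. The call was lost without KO/KO replicate 3 (-1.05, adjusted p = 0.0557), and the range over the alternatives was -1.79 to -0.78.

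Stab1 was lower by -0.63 ± 0.196 (SE, limma adjusted p = 0.0257), with 2.99, 3.05, 3.28 and 2.96 in KO/KO. The highest of these lay just above the lowest control, 3.26. The call was lost in 6 of 21 alternatives. It was lost without Het/Het replicate 3 (-0.53, adjusted p = 0.0817) or replicate 4 (-0.50, adjusted p = 0.0877), KO/KO replicate 1 (-0.60, adjusted p = 0.0565) or replicate 4 (-0.60, adjusted p = 0.0671), the KO/KO littermates (-0.58, adjusted p = 0.108) and the libraries that carry another tissue (-0.50, adjusted p = 0.126). Oit3 stood at 4.29, 4.27, 4.20 and 4.79 in KO/KO, all above the controls, but its difference of 0.27 did not pass the test (adjusted p = 0.191). Kdr and Flt1 differed by 0.32 and 0.38 with adjusted p of 0.344 and 0.457. Without Het/Het replicate 2 these became 0.14 and 8.9e-05, and leaving out single libraries raised them to at most 0.45 for Kdr and 0.72 for Flt1. The 5 remaining members differed by -0.28 (Stab2) to 0.08 (Tek).

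Loss of Cpt2 in the liver of the dam was examined in Cpt2LKO/Flox against Flox/Flox. No member was called by limma, and none had an unadjusted p under 0.05. No gene of 11805 was called either (0%), and 11.1% had an unadjusted p under 0.05. Clec4g stood at 3.20, 3.31, 3.37 and 3.13 in Flox/Flox and at 3.14, 3.69, 2.89 and 1.46 in Cpt2LKO/Flox. Replicate 4 of the latter was the low one, near the KO/Het range, and the other 3 lay around the controls. The difference was -0.46 ± 0.368 (SE, adjusted p = 0.666, interval -1.23 to 0.32). Oit3 had the smallest p of the members, with a difference of 0.30 ± 0.148 (adjusted p = 0.464, interval -0.01 to 0.60).

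The effects of the 2 maternal genotypes were then compared directly. The difference between them for Clec4g was -1.85 ± 0.521 (SE, limma adjusted p = 0.129), which did not pass the test. Without Cpt2LKO/Flox replicate 4 it was -2.30 with an adjusted p of 0.0291, and the genes called over the whole table went from 0 to 343 higher and 78 lower. No other member had an unadjusted p under 0.05 for this difference, against 19.9% of 11798 genes, and no gene was called (0%). The 2 control groups, Het/Het and Flox/Flox, differed in no member by limma and in 0.136% of 11800 genes (0.0593% higher and 0.0763% lower), with no member at an unadjusted p under 0.05. The differences between controls ran from -0.11 for Tek to 0.39 for Stab1. Without the presumed littermates of Flox/Flox, an alternative added after seeing the data, Stab2 was called higher in Het/Het (0.67, adjusted p = 0.0449).

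Over the 5 groups the order of the means differed between members, and within a member no neighbours in that order had libraries without overlap. For Clec4g the order from lowest to highest was KO/Het (1.05 ± 0.306, SD, n = 4), KO/KO (2.03 ± 0.77), Cpt2LKO/Flox (2.80 ± 0.952), Flox/Flox (3.25 ± 0.106) and Het/Het (3.36 ± 0.222). For Kdr, Flt1 and Oit3, KO/Het was highest (3.17 ± 0.196, 0.99 ± 0.303 and 4.62 ± 0.16), KO/KO was next (2.83 ± 0.29, 0.36 ± 0.284 and 4.39 ± 0.272) and Flox/Flox was lowest (2.29 ± 0.505, -0.33 ± 0.495 and 3.89 ± 0.28). Stab1 was highest in Het/Het (3.70 ± 0.413) and lowest in Cpt2LKO/Flox (3.06 ± 0.107). Pecam1 spanned the least, from 2.47 to 3.05 over the 20 libraries, and Clec4g the most, from 0.68 to 3.69.

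Within Flox/Flox the presumed littermates, replicates 3 and 4, stood above replicates 1 and 2 in 9 of the 10 members. Of all tested genes 39.6% were split that way. Kdr, for example, read 2.81 and 2.63 in the littermates against 1.88 and 1.83, and Lyve1 4.83 and 4.76 against 4.30 and 4.01. Clec4g alone overlapped, with 3.37 and 3.13 against 3.20 and 3.31. In KO/Het the corresponding pair stood higher in 1 member (Oit3) and lower in 2 (Tek and Clec4g), against 15.4% and 46.5% of all tested genes. In KO/KO it stood higher in 1 (Lyve1) and lower in 1 (Kdr), against 25.2% and 20.9%. Without the Flox/Flox pair the median difference of the members in the maternal Cpt2 comparison moved from -0.06 to 0.27, and that of the controls from 0.22 to 0.50.

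Across the 20 libraries the other 9 members were positively correlated, some pairs only weakly, while Clec4g ran opposite to several of them. All 36 pairs among the 9 had a Pearson r above 0, from 0.03 (Stab1 with Oit3) to 0.874 (Kdr with Flt1), with a median of 0.522. Clec4g had an r of 0.14 with Stab1 and below 0 with the other 8, down to -0.771 with Kdr, -0.749 with Oit3 and -0.738 with Flt1. The libraries share their group structure and normalization, so these values describe the table and carry no test.

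**Figure D3:**
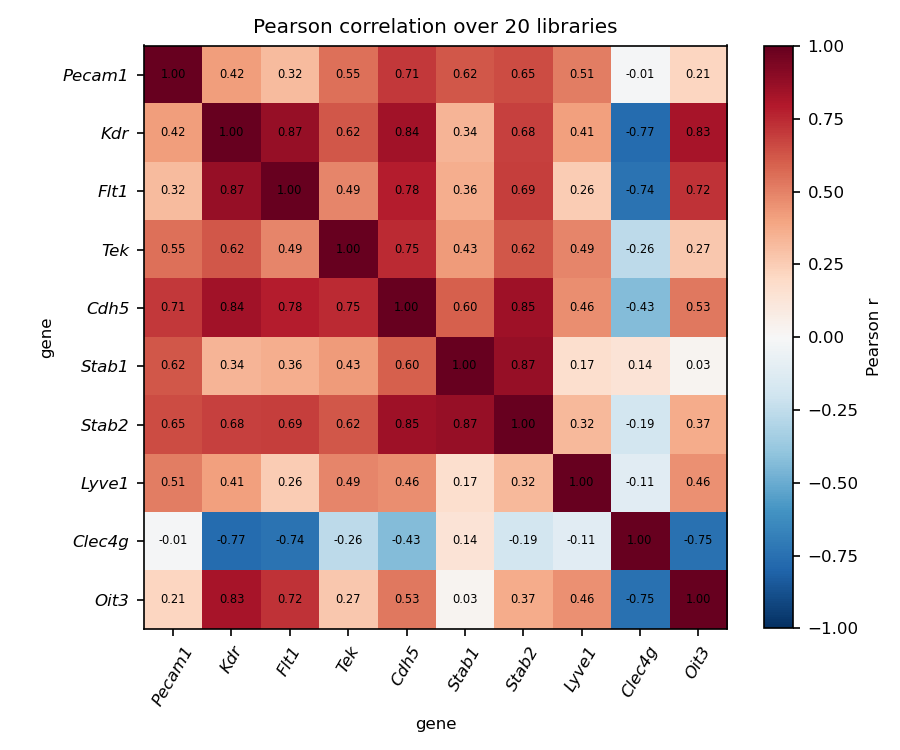
The matrix gives Pearson r between each pair of the 10 genes over 20 libraries (both axes list the genes; colour runs from -1 in blue to 1 in red). Clec4g runs from -0.771 with Kdr to 0.14 with Stab1, with all but that last value below 0, while the other 9 genes are all above 0 with each other.

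By Pearson r over the 20 libraries, the genes most like the mean of the 10 members, each scaled to unit variance, were Plxnd1 (0.922), F5 (0.92), Itih2 (0.907), Flii (0.906) and Nid1 (0.904). Plxnd1 encodes a semaphorin receptor of endothelial cells, F5 coagulation factor V and Nid1 the basement membrane protein nidogen. Those most like Clec4g were Nr1h3 (0.954), Keg1 (0.952), Ptgr2 (0.952), Gm5340 (0.951) and Hacd2 (0.951). Nr1h3, the oxysterol receptor LXR-alpha, read 2.93 to 3.14 in Het/Het and 0.87 to 1.57 in KO/Het. In Cpt2LKO/Flox replicate 4 it read 1.84, against 2.60 to 3.37 in the rest of that group. Nr1h3 was chosen for its likeness to Clec4g over these same libraries, so its values are a description.

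Other sinusoidal genes were read from a list of 16, of which 13 passed the filter. In KO/Het against Het/Het, 4 were called lower and 1 higher, beside 12.6% and 26.4% of all genes (39.0% together), and the list's median difference was -0.22 against 0.14 over all genes tested. Under the trimmed-mean scaling 6 were called lower and 1 higher, beside 18.9% and 18.7% of all genes. Fcgr2b, the inhibitory Fc receptor that clears immune complexes in sinusoids, fell from 2.77, 2.97, 2.71 and 2.66 to 0.97, 1.38, 1.68 and 1.72 (-1.34 ± 0.254, SE, limma adjusted p = 7.75e-04). Dnase1l3, a secreted DNase, fell from 1.99, 2.21, 1.59 and 1.95 to 0.77, 0.71, 1.09 and 1.25 (-0.98 ± 0.181, adjusted p = 6.62e-04). In both, as in Clec4g, no KO/Het fetus reached the lowest control. Gpr182, a scavenger receptor for chemokines, fell by 0.81 (adjusted p = 0.00258), and Maf, a transcription factor of sinusoidal endothelium and macrophages, by 0.60 (adjusted p = 0.00686).

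Bmp2, an iron-regulating ligand made by sinusoidal endothelium, rose from 1.36, 0.59, 0.77 and 0.38 to 1.79, 2.36, 1.99 and 2.11 (1.29 ± 0.256, SE, limma adjusted p = 0.00107). The calls of these 5 genes held in every alternative in which they were tested. The 8 others did not pass, among them Mrc1, the mannose receptor, at 0.11 (adjusted p = 0.683), Clec1b at -0.11 (adjusted p = 0.475) and Gata4, a factor that sets sinusoidal identity, at -0.37 (adjusted p = 0.128). In Cpt2LKO/Flox replicate 4, Fcgr2b read 1.67 and Dnase1l3 1.21, each the lowest of its group.

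**Figure D4:**
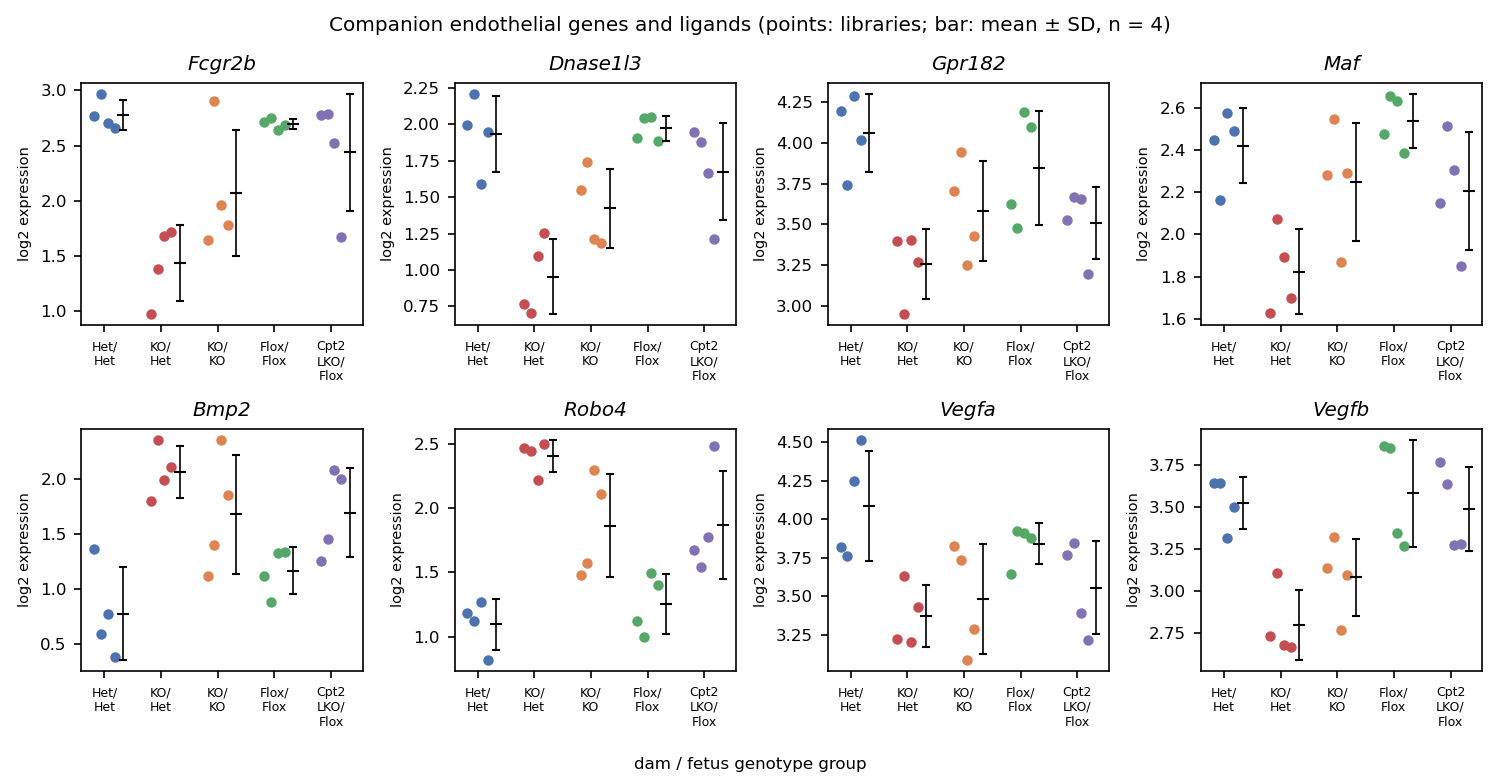
Panels show log2 expression (vertical axis) of 8 further genes in the 5 dam/fetus groups (horizontal axis), with points for single fetuses and mean ± SD bars (n = 4). Fcgr2b, Dnase1l3, Gpr182, Maf, Vegfa and Vegfb are lower, and Bmp2 and Robo4 higher, in KO/Het than in Het/Het, without overlap of the libraries.

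General endothelial surface genes were read from a list of 24, all of which passed the filter. In KO/Het, 2 were called higher and 2 lower, beside 39.0% of all genes called, and the median difference was 0.11. Under the trimmed-mean scaling 2 were called higher and 5 lower, beside 18.7% and 18.9% of all genes. Robo4, a guidance receptor that stabilises vessels, read 1.18, 1.12, 1.27 and 0.82 in Het/Het and 2.47, 2.44, 2.22 and 2.49 in KO/Het (1.31 ± 0.205, SE, limma adjusted p = 2.41e-04). Adgrf5, an adhesion receptor, was higher by 0.81 (adjusted p = 0.014) and Icam2, an adhesion molecule for leukocytes, lower by -1.04 (adjusted p = 0.00797); both calls were lost without the presumed littermates of KO/Het, and that of Adgrf5 also without Het/Het replicate 2 (0.66, adjusted p = 0.0534). Esam, a junction protein, was lower by -0.35 (adjusted p = 0.0499), a call lost in 16 of 21 alternatives, while that of Robo4 held in all. The remaining 20, such as Tie1 (0.22), Eng (0.08), Plvap (0.09) and Cldn5 (0.09), did not pass the test.

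Of 8 ligands of the VEGF and angiopoietin receptors 4 passed the filter, and 3 were called lower in KO/Het, beside 12.6% of all genes. KO/Het was also the group in which the receptors Kdr and Flt1 were higher. Vegfa, the principal ligand of VEGFR2, read 3.82, 3.76, 4.25 and 4.52 in Het/Het and 3.22, 3.63, 3.20 and 3.43 in KO/Het (-0.72 ± 0.191, SE, limma adjusted p = 0.00699). Vegfb, which binds VEGFR1, read 3.65, 3.64, 3.32 and 3.50 against 2.73, 3.11, 2.68 and 2.67 (-0.73 ± 0.166, adjusted p = 0.00252). Both calls held in every alternative, and the groups did not overlap. Angpt2, the context-dependent ligand of TIE2, was lower by -0.93, a call lost in 9 of 20 alternatives, and Vegfc differed by 0.39 (adjusted p = 0.128). Of 5 further receptors read with them 4 passed the filter and none was called, beside 39.0% of all genes. The 4 were Nrp1 (-0.03), a VEGF co-receptor, Flt4 (-0.37), VEGFR3, Tie1 (0.22), the relative of TIE2, and the semaphorin receptor Plxnd1 (0.11).

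Of 12 genes of endothelial BMP signalling 11 passed the filter, and 2 were called higher and 1 lower, beside 26.4% and 12.6% of all genes. Gdf2, the circulating ligand BMP9, was lower in KO/Het by -0.63 ± 0.175 (SE, limma adjusted p = 0.00881), and Bmp2 and Bmpr2 were higher, the latter by 0.58 with a call lost in 12 of 20 alternatives. The target genes Id1, Id2 and Id3 differed by -0.0048, -0.08 and -0.09 and were not called. Of 15 endothelial transcription factors tested, Maf and Lyl1 (-0.83) were called lower and none higher, beside 12.6% and 26.4% of all genes. The call of Lyl1 was lost without the presumed littermates of KO/Het (-0.71, adjusted p = 0.102). Erg, Fli1 and Sox18 differed by -0.09, -0.0076 and -0.36 without passing the test. None of the 3 Notch pathway genes tested was called, beside 39.0% of all genes. Of the 2 venous genes tested, 1 was called higher and 1 lower, beside 26.4% and 12.6% of all genes. Nr2f2, which specifies veins, was higher by 0.57 (limma adjusted p = 0.0132, and 0.0529 when only the 2 groups compared were fitted). Ephb4 was lower by -0.51 (adjusted p = 0.0487), a call lost in 12 of 21 alternatives.

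In KO/KO against Het/Het, limma called Robo4 (0.76, adjusted p = 0.0124), Bmp2 (0.90, adjusted p = 0.0163) and Nr2f2 (0.67, adjusted p = 0.00925) higher. It called Fcgr2b (-0.70, adjusted p = 0.0488), Dnase1l3 (-0.51, adjusted p = 0.0462) and Vegfa (-0.60, adjusted p = 0.0279) lower. Of these 6 calls, that of Fcgr2b was lost in 11 alternatives, Dnase1l3 in 9, Vegfa in 6 and Bmp2 in 4, and those of Robo4 and Nr2f2 in none. By list, 1 of 24 surface genes was called higher, and of 13 sinusoidal genes 1 was called higher and 2 lower. Of 4 ligands 1 was called lower, of 2 venous genes 1 higher, and of 15 transcription factors 0. Over all 11801 genes tested, 17.4% were called higher and 7.31% lower. No gene of the endothelial, ligand or transcription factor lists was called for the fetal knockout, the maternal Cpt2 knockout or the controls. Over all genes tested only 0.822%, 0% and 0.136% were called in these comparisons, so short lists could hardly hold a call. For Robo4 the Cpt2LKO/Flox libraries, 1.67, 1.54, 1.77 and 2.48, lay above all Flox/Flox libraries, 1.12, 1.00, 1.50 and 1.40, with a difference of 0.61 (adjusted p = 0.367).

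Several of the sinusoidal genes that fell are also expressed by macrophages, so macrophage markers were read beside them. Of 12 macrophage and Kupffer cell genes 11 passed the filter. In KO/Het, Lyz2 (-1.64), Clec4f (-1.03), Vsig4 (-1.09) and Csf1r (-0.44) were called lower and Cd5l (0.32) higher, beside 12.6% and 26.4% of all genes. The other 6, among them Adgre1 (0.07), Marco (0.18) and Timd4 (-0.18), were not called. Of 21 alternatives the call of Cd5l was lost in 17 and those of Clec4f, Vsig4 and Csf1r in 7 each, and that of Lyz2 held in all. Without the presumed KO/Het littermates Lyz2 alone of these genes was called. The summed linear level of the list was 919 to 1040 in Het/Het, 605 to 741 in KO/Het, 696 to 923 in KO/KO, 804 to 946 in Flox/Flox and 667 to 848 in Cpt2LKO/Flox. Such a sum is weighted toward the genes with the highest values, and Lyz2 ran from log2 6.92 to 8.95 over the 20 libraries. The fall of Lyz2 thus weighs heavily in it, and the sum is no count of macrophages. Over the 20 libraries the 11 genes had r values with Clec4g from -0.657 to 0.949 (Lyz2), with a median of 0.198, and the 13 other sinusoidal genes from -0.745 to 0.948 (Dnase1l3), with a median of 0.467. The part of macrophages in the values of Clec4g, Fcgr2b, Dnase1l3 and Maf was not tested. Of the stellate cell and blood stem cell lists, 9 and 7 genes passed the filter and none was called in KO/Het, beside 39.0% of all genes. Of 10 erythroid genes, Epor (0.92) and Slc4a1 (0.93) were called higher, beside 26.4% of all genes. Of 10 hepatocyte genes, Afp (0.57) was called higher and Cps1 (-1.62) lower, beside 26.4% and 12.6% of all genes. Of 9 megakaryocyte genes Ppbp (-1.03) was called lower, beside 12.6%. The calls of Epor and Ppbp held in all 21 alternatives, and those of Slc4a1, Afp and Cps1 were lost in 1, 4 and 5. Of 5 lymphatic genes, Prox1, which hepatocytes also express, was called lower (-1.16), beside 12.6% of all genes, a call kept in all 20 alternatives. The part of these cell types in the members' values was not tested.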

How the data were processed

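Stranded mRNA libraries made from Trizol and column extracts were read once over 75 nucleotides, per the labels' protocols. The tools named are bcl2fastq 2.17.1.14 and Partek 7.0, with genome build GRCm38.p6, per the submitters' processing notes. The aligner is not named, and how reads were counted is not given in the sources used here. The authors deposited log2 values for 45802 gene entries, which have the same quantiles in all libraries, so depth is unknown and count tests could not be run. Blanks were read as no value.

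A linear value of 1 or more in 4 libraries or more was asked of a gene, which left 11807 for limma 3.58.1 in R 4.3.3. One model with a mean per group was fitted to all 20 libraries, with a mean-variance trend giving 15 residual degrees of freedom and 4.09 from the prior. Two-sided tests were run in 6 comparisons, each with Benjamini-Hochberg adjustment over its genes. The step was tested on simulated data with independent normal noise, which held no correlation between littermates. Members and gene lists were chosen with earlier results of these data known. Named genes were all members, up to 4 called genes with the smallest p per companion list, any gene of lists of 8 or fewer, and the 5 genes most like the members; the genes named as not passing, the macrophage, erythroid, hepatocyte, megakaryocyte and lymphatic genes and those most like Clec4g beyond this were chosen after their values were seen.

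Each fetus was counted as independent, although the labels do not say that they are separate litters. The p-values measure the spread between these fetuses and not between litters. In the fit with presumed litter as a block, the correlation within litters was estimated at 0.566 over the genes tested. The 17 presumed litters come from a number no label explains. Same-numbered replicates of Het/Het and Flox/Flox deviated together (r = 0.239, 0.323, 0.261 and 0.127), so their numbers were taken to pair. Those of the other groups compared directly did not all exceed 0.1, while those of KO/Het and Flox/Flox did (0.126, 0.139, 0.101 and 0.239). The ground for pairing is weak, since same-numbered replicates had a median r of 0.068 over all groups and other-numbered ones reached 0.503. All reported fits are without the replicate block, which was run as an alternative in all 6 comparisons and changed no member's call. Alternatives changed scaling, pseudocount, filter, spread, covariates, blocks and libraries. Positions, promoters and overlaps came from RefSeq (GRCm38.p6), in which all 10 members matched by symbol, with strands of overlapping genes from GENCODE.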

Additional observations from a re-analysis of the deposited data

Results flagged for a closer look

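In 2 of the 50 sets of 4 libraries (10 members in 5 groups), 1 library stood apart from the other 3 by Dixon's test at the 95% level; chance alone gives about 1 in 20 such sets. Kdr read 1.987 in Het/Het replicate 2, against 2.67, 2.69 and 2.72 in the other controls. Without that library the difference of KO/Het from Het/Het was 0.48 (limma adjusted p = 0.139). Oit3 read 4.791 in KO/KO replicate 4, against 4.29, 4.27 and 4.20 in the other KO/KO fetuses.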

How the results depend on the processing

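The number of members called was compared under 272 alternative values over the 6 comparisons, of which 249 equalled the main count, 4 were 2 members called higher in KO/Het against 3, and the other 19 follow, singly or as ranges; the cause was not tested. For KO/Het against Het/Het, the 3 members called higher became 0 with a trimmed-mean scaling, 1 with quantile normalization of the tested genes, 1 with presumed litter as a block, 0 without the KO/Het littermates, and 1 to 3 when each replicate was left out in turn. The 1 called lower became 2 with the trimmed-mean scaling and 1 to 2 leaving out replicates. That scaling moved the median of all genes from 0.144 to 0.0168, and the calls over all genes from 3117 higher and 1483 lower to 2212 and 2232; quantile normalization gave 2452 and 2003. For KO/KO against Het/Het, the 2 called lower became 1 without the libraries that carry another tissue, 1 without the KO/KO littermates (added after seeing the data), and 1 to 2 leaving out replicates. For the difference of the maternal effects, 0 called lower became 1 without Cpt2LKO/Flox replicate 4. Between the controls, 0 called higher became 1 without the Flox/Flox littermates (added after seeing the data), where the calls over all genes went from 7 higher and 9 lower to 142 and 447; the trimmed-mean scaling gave 10 and 6. With the replicate block, the calls of KO/Het against Het/Het stayed at 3 higher and 1 lower, and no member's call changed in any comparison. A filter of at least 4 on the linear value left no value for Flt1 and Tek.

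Of 1348 alternative values of single members, 1248 kept their sign and their side of the threshold, 28 lost a call, 4 gained one and 68 changed sign. None that changed sign was called on either side, and in every such case the value under the alternative was between -0.22 and 0.27. With the trimmed-mean scaling Cdh5 and Lyve1 were -0.0031 and -0.038 for KO/Het against Het/Het. Tek, Cdh5 and Lyve1 were -0.033, -0.11 and -0.095 for KO/KO against Het/Het, Pecam1 was -0.12 for the difference of the maternal effects, and Tek was 0.037 between the controls. With quantile normalization the last 5 were -0.010, -0.039, -0.014, -0.057 and 0.069. With litter as a block, Lyve1 was -0.0025 for KO/KO against Het/Het, Cdh5 and Stab2 were 0.012 and 0.0086 for Cpt2LKO/Flox, and Pecam1 was -0.038 for the difference.

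Without the libraries that carry another tissue, Stab2 was 0.0067 for KO/Het, Lyve1 -0.13 for KO/KO against Het/Het, Cdh5 0.042 for Cpt2LKO/Flox, Pecam1 and Stab2 -0.016 and 0.023 for the difference, and Flt1 -0.035 between controls. Without the Flox/Flox littermates, Pecam1, Tek, Cdh5, Stab1 and Stab2 were 0.16, 0.060, 0.27, 0.085 and 0.27 for Cpt2LKO/Flox. Pecam1, Cdh5 and Oit3 were -0.22, -0.14 and -0.029 for the difference, and Tek was 0.17 between controls. Without the KO/KO littermates, Tek and Lyve1 were -0.011 and -0.089 for KO/KO against Het/Het.

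Leaving out each replicate in turn, sign changes lay within these ranges. For KO/Het against Het/Het, Cdh5 ran from -0.044 to 0.21 and Stab2 from -0.28 to 0.0067. For KO/KO against Het/Het, Tek ran from -0.0020 to 0.16, Cdh5 from -0.16 to 0.091 and Lyve1 from -0.056 to 0.067. For KO/KO against KO/Het, Tek ran from -0.16 to 0.046. For Cpt2LKO/Flox, Kdr ran from -0.12 to 0.22, Cdh5 from -0.22 to 0.053, Stab2 from -0.18 to 0.081 and Lyve1 from -0.012 to 0.26. For the difference, Pecam1 ran from -0.066 to 0.10, Stab2 from -0.22 to 0.071 and Lyve1 from -0.17 to 0.10. Between controls, Flt1 ran from -0.035 to 0.68 and Lyve1 from -0.073 to 0.20. Depth is unknown, so what it limits in low genes such as Flt1 cannot be stated.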
